A study of Mus musculus with 6 samples.

Results

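The genes described here are 8 solute carriers of brain vessels, Slco1c1, Slco1a4, Slco2b1, Slc22a8, Slc19a3, Slc40a1, Slc39a8 and Slc39a10. They were taken by gene symbol from 23183 genes measured in each library, and the list was drawn up with earlier results of these data known. No member reached an adjusted p under 0.05 between the groups. Slco1c1 was higher in each KO mouse than in any WT mouse, Slc19a3 was lower in each KO mouse than in any WT mouse, and the other 6 members overlapped between the groups. Such a separation in either direction was found for 11.1% of all genes tested, and the count of 2 members fell to 1 with median scaling, quantile normalization, endothelial scaling or GC correction.

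The study sequenced RNA of cerebral microvessels from 3 WT mice and 3 TEKCRIF1 KO mice. The mice were C57BL/6, the WT mice TEK-cre, Crif1+/+ and the KO mice TEK-cre, Crif1 flox/flox, so that the Cre transgene was present in both groups. Crif1, also named Gadd45gip1, encodes a protein of the mitochondrial ribosome that is needed to make subunits of the respiratory chain, and the comparison addressed which genes change in vessels when endothelial mitochondria fail. The Tek promoter drives Cre in endothelial cells and also in some blood-forming cells, and the age and sex of these 6 mice are not given in the sources used here. Vessels were collected by homogenising the brain, spinning it in dextran and retaining the pellet on a strainer, so that each library holds RNA of all cells that stay with the vessels.

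Solute carriers move hydrophilic molecules through the membranes of the blood-brain barrier, where tight junctions close the path between the cells. Slco1c1 carries thyroxine, and Slco1a4 and Slco2b1 carry bile salts, steroid conjugates and many drugs. Slc22a8 takes up organic anions and in brain endothelium works on the side facing the brain to clear them. Slc19a3 brings in thiamine, the vitamin whose diphosphate is the cofactor of pyruvate dehydrogenase. Slc40a1, ferroportin, is the iron exporter of mammalian cells, and Slc39a8 and Slc39a10 bring zinc, and in the case of Slc39a8 also manganese, into the cell.

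The regions ahead of the start sites of 4 members are shown. Slco1c1, Slc22a8 and Slco1a4 had the highest WT means of the members and Slc19a3 the lowest. Each stretch is the 250 bases before the RefSeq start in GRCm38.p6, read 5′ to 3′ on the strand of the gene. Capitals mark the motif matches found, and a stretch without capitals held none of the motifs searched. Slco1c1 lies at chr6:141524104-141524353 on the plus strand, Slco1a4 at chr6:141856221-141856470 on the minus strand, Slc22a8 at chr19:8592932-8593181 on the plus strand and Slc19a3 at chr1:83038449-83038698 on the minus strand.
Slco1c1: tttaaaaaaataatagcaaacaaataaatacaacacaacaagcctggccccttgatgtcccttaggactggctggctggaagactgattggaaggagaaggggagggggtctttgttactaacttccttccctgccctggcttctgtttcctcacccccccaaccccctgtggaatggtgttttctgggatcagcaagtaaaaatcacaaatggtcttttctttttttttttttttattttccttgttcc
Slco1a4: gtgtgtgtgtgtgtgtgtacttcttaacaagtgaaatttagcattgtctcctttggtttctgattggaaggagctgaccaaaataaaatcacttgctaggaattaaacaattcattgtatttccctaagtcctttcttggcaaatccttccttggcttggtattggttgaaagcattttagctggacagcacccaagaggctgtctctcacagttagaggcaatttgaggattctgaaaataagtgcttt
Slc22a8: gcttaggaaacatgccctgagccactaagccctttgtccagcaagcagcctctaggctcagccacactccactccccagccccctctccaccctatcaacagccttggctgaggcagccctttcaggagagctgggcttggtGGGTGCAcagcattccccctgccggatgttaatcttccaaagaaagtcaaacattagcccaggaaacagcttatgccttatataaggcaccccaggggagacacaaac
Slc19a3: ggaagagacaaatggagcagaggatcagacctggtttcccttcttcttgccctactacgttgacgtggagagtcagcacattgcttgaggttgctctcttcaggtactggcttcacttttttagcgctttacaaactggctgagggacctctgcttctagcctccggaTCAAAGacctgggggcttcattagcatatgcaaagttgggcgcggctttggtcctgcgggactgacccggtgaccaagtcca

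The stretches of Slco1c1 and Slco1a4 held 0 CpG dinucleotides, that of Slc22a8 held 1 and that of Slc19a3 held 8, against a median of 6 over 32851 RefSeq windows of that length. Their GC content was 42.8%, 39.2%, 55.2% and 52.8%, against a median of 52.4%. The 7 motifs were searched on both strands. They were CTTTGA, the core bound by TCF/LEF factors, which 13.8% of all windows held, AGGTCA, the hexamer of nuclear receptors, held by 14%, TGCGCNC and TGCACNC, forms of the metal response element, held by 12.5% and 10.4%, TGACNNNGC of the antioxidant response element, held by 10.2%, GGGCGG of SP1, held by 32.7%, and TATAAA, held by 12.4%. In Slc19a3 the capitals are the TCF/LEF core read on the opposite strand, from -82 to -77 relative to the start. In Slc22a8 the capitals are TGCACNC read on the opposite strand, from -108 to -102. Windows were found for 7 members, 11 windows in all, and Slc40a1 had none. Windows of Slc39a8 and Slc39a10 also held matches and are not shown. These matches are letters in a window and do not show that a factor binds there.

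Slc40a1 carries an iron-responsive element, the hairpin through which iron regulatory proteins hold back translation when it lies in a 5′ UTR and stabilise the transcript when it lies in a 3′ UTR. It is shown beside those of the ferritin genes Fth1 and Ftl1 and 1 of the 4 found in the transferrin receptor Tfrc. The stretches of 30 bases were found in GENCODE M21 transcripts by a loop of CAGTG followed by A, C or T, in capitals, between paired stems. The search asked for a C, a stem of 5 bases, the loop and 5 bases that pair with the stem, G with T allowed. The Slc40a1 element is in exon 1 at chr1:45925464-45925493 on the minus strand, that of Fth1 at chr19:9982732-9982761 on the plus strand, that of Ftl1 at chr7:45459778-45459807 on the minus strand and that of Tfrc in exon 19 at chr16:32631219-32631248 on the plus strand. A match was present in the 5′ UTR of 23 of 20580 genes (0.112%) and in the 3′ UTR of 100 of 20962 genes (0.477%).
Slc40a1: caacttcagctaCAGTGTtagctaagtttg
Fth1: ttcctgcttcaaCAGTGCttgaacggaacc
Ftl1: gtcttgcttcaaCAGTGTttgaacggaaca
Tfrc: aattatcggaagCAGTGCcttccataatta

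Levels are given in FPKM, fragments mapped to a gene divided by its transcript length and by the depth of the library. The depth behind them, estimated from the spacing of the lowest values, was 6500000 to 11800000 fragments a library, and a transcript of 1 kb with 3 fragments would be at 0.253 to 0.464 FPKM. The FPKM of all genes summed to 432831, 445069 and 425205 in WT 1 to 3 and to 539408, 381187 and 449106 in KO 1 to 3. Values were used as deposited, and whether the separations of Slco1c1 and Slc19a3 hold at equal sums was not tested. Gadd45gip1 was at 18.8, 15.3 and 16.5 FPKM in WT 1 to 3 and at 10.8, 7.54 and 10.4 FPKM in KO 1 to 3, so that each library was on the side of its label. Of 14247 genes tested with limma on log2(FPKM + 1), none (0) passed an adjusted p of 0.05, at a smallest value of 0.841, while 838 fell under 0.05 before adjustment. The endothelial list was present in every library, with Cldn5 at 462 to 702 FPKM in the WT mice and 420 to 598 FPKM in the KO mice, and the summed level of its 12 genes was 1088 to 1427 FPKM in the WT mice and 944 to 1273 FPKM in the KO mice. Libraries KO 1 and KO 3 stood apart in the 7 choroid plexus epithelium markers, which summed to 9107 and 11038 FPKM there, to 3079 FPKM in KO 2 and to 3027 to 3474 FPKM in the WT mice. In bulk RNA fewer cells of a type cannot be told apart from less RNA per cell.

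The members spanned a wide range of levels. In the WT mice Slco1c1 had the highest mean at 115 FPKM and was 510th of all genes, followed by Slc22a8 at 104 FPKM, Slco1a4 at 47 FPKM, Slc39a8 at 35.8 FPKM, Slc40a1 at 34.7 FPKM, Slc39a10 at 26.3 FPKM, Slco2b1 at 19.2 FPKM and Slc19a3 at 5.33 FPKM. FPKM is scaled to transcript length, so these levels can be set against each other. The WT ranges of Slco1c1 and Slc22a8 overlapped, as did those of Slco1a4 and Slc39a8 and those of Slc39a8 and Slc40a1, while the other neighbours in this order were separate. In the KO mice the order was the same except that Slc40a1 and Slc39a8 changed places with overlapping ranges. There the ranges of Slco1c1 and Slc22a8 were separate, with the lowest Slco1c1 value at 122 FPKM and the highest Slc22a8 value at 102 FPKM. All 8 members exceeded 1 FPKM in every library.

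**Figure D1:**
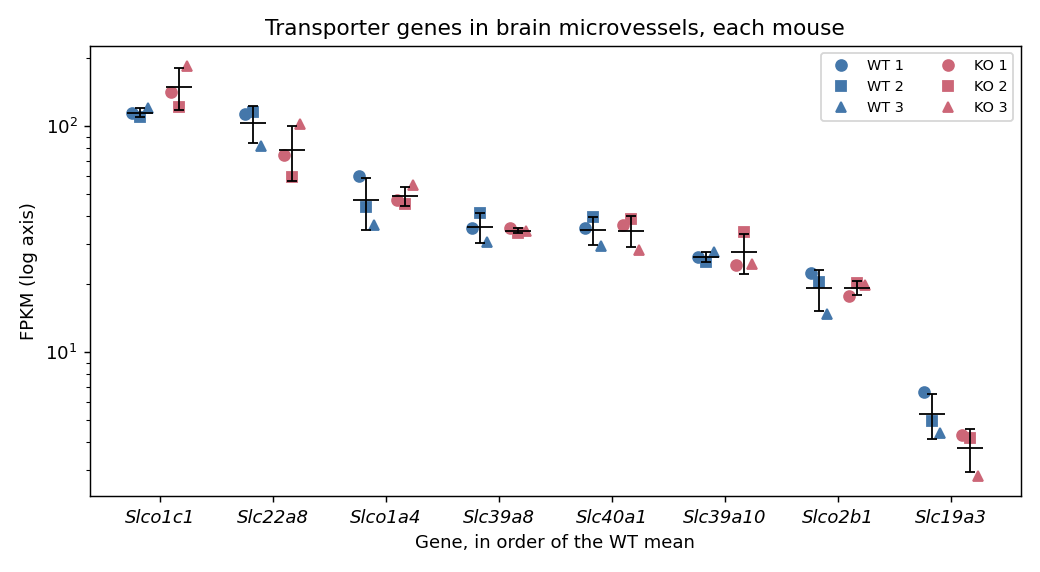
Level of each member in each mouse, in FPKM on a log axis, with genes in order of the WT mean from left to right. Blue symbols are WT 1 to 3 and red symbols KO 1 to 3, and black bars show mean ± SD; the 2 groups are separate for Slco1c1, where KO is higher (122 to 184 against 110 to 120 FPKM), and for Slc19a3, where KO is lower (2.84 to 4.29 against 4.39 to 6.67 FPKM).

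Slco1c1, the thyroxine carrier (chr6:141524368-141570177), was at 115, 110 and 120 FPKM in WT 1 to 3 and at 142, 122 and 184 FPKM in KO 1 to 3. The WT mice lay close together and the KO mice were spread widely, with KO 3 highest and KO 2 barely above the highest WT mouse. The mean was 115 ± 4.82 FPKM in WT and 149 ± 31.5 FPKM in KO (SD, n = 3 each), 1.29 times as high in KO. The log2 fold change was 0.35 (SE 0.22, 95% interval -0.13 to 0.83), with a limma p of 0.135 and an adjusted p of 0.848 beside an exact two-sided permutation p of 0.1, the smallest that 3 mice against 3 can give. It was 0.21 with GC correction, 0.19 without KO 3, 0.49 without KO 2 and 0.52 with libraries scaled to the endothelial markers. Over 13726 genes of known GC content the log2 fold change fell as GC content rose (Spearman rho -0.35). The Slco1c1 transcript had a GC content of 43.1%, and the cause of that trend was not tested. Slco1c1 was the only member above all WT mice in every KO mouse, 1 of 8, where 5.37% of the genes tested were.

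Slco1a4, which carries bile salts and steroid conjugates at the barrier (chr6:141805440-141856199), was at 60.4, 44 and 36.6 FPKM in WT 1 to 3 and at 47.4, 45.5 and 54.7 FPKM in KO 1 to 3. All KO values fell inside the WT range. The log2 fold change was 0.09 (95% interval -0.41 to 0.59, adjusted p = 0.969). Slco1a4 has close relatives beside it on chromosome 6, among them Slco1a5 and Slco1a6, and how reads shared by them were assigned is not given in the sources used here.

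Slco2b1, a carrier of steroid sulphates and drugs that microglia also express (chr7:99657804-99711340), was at 22.4, 20.5 and 14.7 FPKM in WT 1 to 3 and at 17.7, 20.3 and 19.9 FPKM in KO 1 to 3. The KO values again fell inside the WT range, and the log2 fold change was 0.03 (95% interval -0.45 to 0.51, adjusted p = 0.993). Of the 7 microglia and macrophage markers 6 were lower in KO and 1 higher, 0 of them under 0.05 before adjustment, and their sum was 119 to 146 FPKM in WT and 99 to 107 FPKM in KO. The part of those cells in the Slco2b1 level was not tested.

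Slc22a8, the organic anion transporter (chr19:8591254-8611835), was at 113, 116 and 81.5 FPKM in WT 1 to 3 and at 74.7, 59.8 and 102 FPKM in KO 1 to 3. KO 1 and KO 2 were below every WT mouse, whereas KO 3 was above WT 3. The mean was 104 ± 19.1 FPKM in WT and 78.8 ± 21.3 FPKM in KO (SD, n = 3 each), with a log2 fold change of -0.41 (SE 0.25, 95% interval -0.96 to 0.15, p = 0.133, adjusted p = 0.848, exact permutation p = 0.2). Without KO 3 the log2 fold change was -0.61 (adjusted p = 0.712), without KO 2 it was -0.23, and with libraries scaled to the endothelial markers it was -0.23. Among the other members of its family, Slc22a6, which also carries organic anions and was named after its values were seen, was at 81.1, 70.6 and 42.8 FPKM in the WT mice and at 55, 40.4 and 48.4 FPKM in the KO mice. Of the 10 other Slc22 genes tested, Slc22a6 among them, 6 had a higher and 4 a lower mean log2 level in KO. Slc22a8 is also expressed in the meninges and the choroid plexus. The 5 fibroblast markers summed to 1205 to 1809 FPKM in WT and to 800 to 1105 FPKM in KO, all 5 lower in KO and 1 of them under 0.05 before adjustment, and their part in the Slc22a8 level was not tested.

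Slc19a3, the thiamine carrier (chr1:83012523-83038448), was the least abundant member, at 6.67, 4.94 and 4.39 FPKM in WT 1 to 3 and at 4.29, 4.17 and 2.84 FPKM in KO 1 to 3. KO 1 was just below WT 3, and KO 3 was the lowest of all. The mean was 5.33 ± 1.19 FPKM in WT and 3.77 ± 0.805 FPKM in KO (SD, n = 3 each), 0.71 of the WT mean. The log2 fold change was -0.41 (SE 0.27, 95% interval -1.01 to 0.19) with a limma p of 0.159, an adjusted p of 0.849 and an exact permutation p of 0.1. It was -0.26 without WT 1, -0.26 without KO 3 and -0.24 with libraries scaled to the endothelial markers. It was the 1 member of 8 below all WT mice in every KO mouse, where 5.70% of the genes tested were. An estimated 80 to 230 fragments stood behind each value, for a counting error of up to 11.1% (CV), which exceeds the gap between KO 1 and WT 3. Of the 9 pericyte markers 8 were lower in KO and 1 higher, 2 of them under 0.05 before adjustment and 4 below all WT mice in every KO mouse, with a median log2 fold change of -0.21. Their sum was 847 to 1352 FPKM in WT and 884 to 1008 FPKM in KO, and the part of pericytes in the Slc19a3 level was not tested.

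Slc40a1, the iron exporter (chr1:45908068-45926523), was at 35.4, 39.5 and 29.4 FPKM in WT 1 to 3 and at 36.4, 38.9 and 28.4 FPKM in KO 1 to 3. The groups covered nearly the same range, and the means were 34.7 ± 5.08 and 34.6 ± 5.46 FPKM (SD, n = 3 each). The log2 fold change was -0.01 (95% interval -0.47 to 0.46, adjusted p = 0.997), an interval that leaves room for moderate changes in either direction. These are transcript levels, and the hairpin shown above acts on translation, which was not measured here.

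The zinc importers likewise overlapped between the groups. Slc39a8, which also brings in manganese (chr3:135825279-135888572), was at 35.4, 41.3 and 30.6 FPKM in WT 1 to 3 and at 35.4, 33.8 and 34.4 FPKM in KO 1 to 3, with a log2 fold change of -0.04 (95% interval -0.47 to 0.39, adjusted p = 0.986). Slc39a10 (chr1:46807544-46892852) was at 26.3, 25 and 27.7 FPKM in WT 1 to 3 and at 24.4, 34.1 and 24.6 FPKM in KO 1 to 3, with a log2 fold change of 0.05 (95% interval -0.40 to 0.51, adjusted p = 0.98). For Slc39a8 the KO mice had a CV of 2.37% and lay inside the WT range. For Slc39a10 KO 2 was above all other mice and KO 1 and KO 3 were below all WT mice.

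Over the 8 members, 4 had a higher mean log2 level in KO and 4 a lower one, and their median log2 fold change was 0.01 against -0.006 over all genes tested. In limma 0 members passed 0.05 after adjustment and 0 before it, where 2.77% of the genes tested were higher and 3.11% lower at that level.

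**Figure D2:**
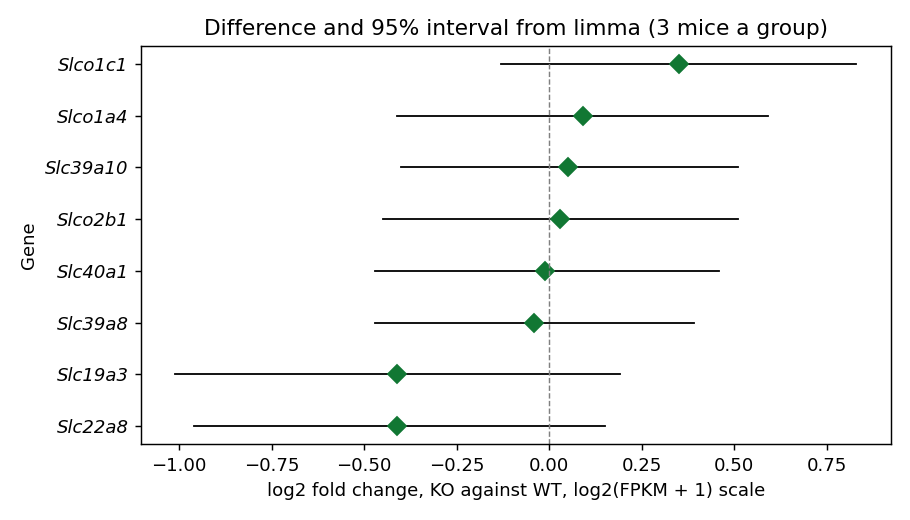
Difference between KO and WT for each member on the log2(FPKM + 1) scale, as a diamond, with the 95% interval from limma as a line (3 mice a group). The dashed line marks no difference; all 8 intervals cross it, from Slco1c1 at the top (0.35) to Slc22a8 at the bottom (-0.41).

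A second view set each member against endothelial cells of the same library, as its log2 level minus the mean log2 level of the 12 endothelial markers. Apart from the pseudocount, this ratio does not depend on how libraries are scaled against each other. For Slco1c1 it was 0.64, 0.61 and 0.96 in WT 1 to 3 and 1.08, 1.16 and 1.53 in KO 1 to 3. The groups did not overlap, the mean difference was 0.52 on the log2 scale, and KO 2 now stood clear of the WT mice. For the other 7 members the ratios overlapped, with differences from -0.24 for Slc19a3 to 0.26 for Slco1a4. Slc19a3 therefore lost its separation, since KO 2 at -3.40 was above WT 2 and WT 3 at -3.62 and -3.53. The endothelial list itself leaned lower in KO, with 8 of 12 markers lower, 1 of them under 0.05 before adjustment, and a median log2 fold change of -0.13. That gene was Cdh5, the adherens junction cadherin, at 86.7, 92.4 and 91.3 FPKM in WT and 50.8, 42.5 and 38.1 FPKM in KO.

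**Figure D3:**
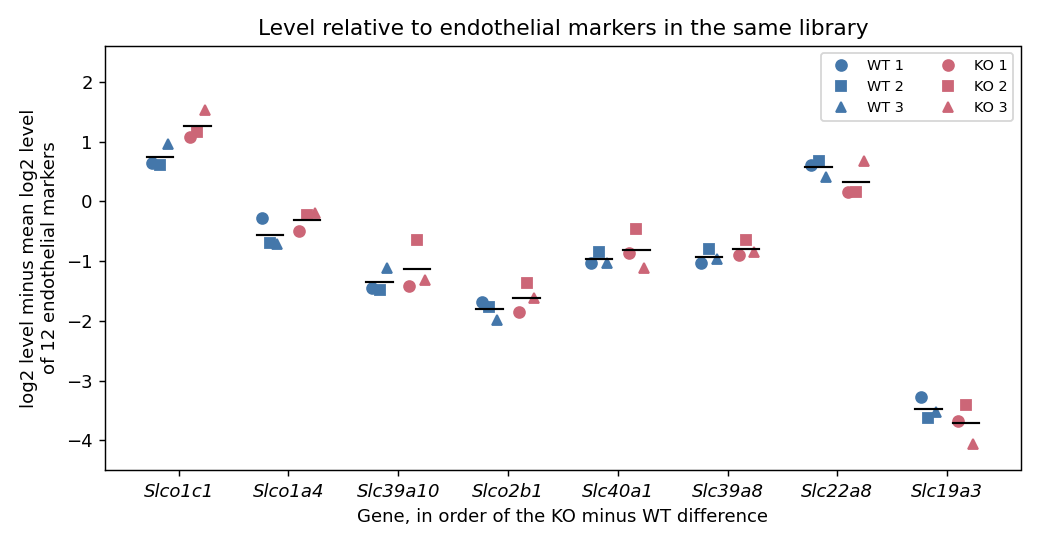
Log2 level of each member minus the mean log2 level of 12 endothelial markers in the same library, for WT 1 to 3 (blue) and KO 1 to 3 (red), with black bars for group means. Genes run from the highest KO minus WT difference (Slco1c1, 0.52) to the lowest (Slc19a3, -0.24), and the groups are separate for Slco1c1 alone among the 8.

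Ratios between pairs of carriers were compared in the same way. The log2 ratio of Slc22a8 to Slco1a4 was 0.90, 1.37 and 1.13 in WT 1 to 3 and 0.65, 0.39 and 0.88 in KO 1 to 3. The KO mice were all below the WT mice, with a difference of -0.50. The ratio of Slco1c1 to Slco1a4, the thyroxine carrier against the bile salt carrier, overlapped, with a difference of 0.26. So did that of Slc39a8 to Slc39a10, with a difference of -0.09. Over all 12 ratios computed, the 8 endothelial ones among them, the exact permutation p was between 0.1 and 0.7, and after Benjamini-Hochberg adjustment over the 12 it was 0.6 or 0.7. The design cannot give an exact p under 0.1, so these ratios are read as values per mouse.

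The high Slco1c1 values of KO 1 and KO 3 came from the libraries with high choroid plexus markers, and choroid plexus epithelium also expresses Slco1c1. All 7 markers of that list were higher on average in KO, 2 of them under 0.05 before adjustment, with a median log2 fold change of 0.94 and none at 0. In KO 2, where the sum of the markers lay inside the WT range, Slco1c1 was at 122 FPKM against 120 FPKM in the highest WT mouse. With KO 1 and KO 3 left out, an alternative chosen after seeing the data in which KO 2 is assumed to vary like the WT mice, the log2 fold change of Slco1c1 was 0.08 (limma adjusted p = 0.864). Its log2 ratio to the endothelial markers differed by 0.43 there, against 0.52 with all mice. As Slco1c1 itself differed by 0.08, most of the 0.43 came from the marker mean, and the summed endothelial markers were lowest in KO 2, at 944 FPKM. Without KO 1 and KO 3 the difference of Slc22a8 became -0.76, as its KO 2 value was the lowest. Slco1c1 is expressed by astrocytes as well, and the 7 astrocyte markers were all lower in KO, 2 of them under 0.05 before adjustment, with sums of 582 to 686 FPKM in WT and 438 to 487 FPKM in KO. The part of either cell type in the Slco1c1 difference was not tested.

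**Figure D4:**
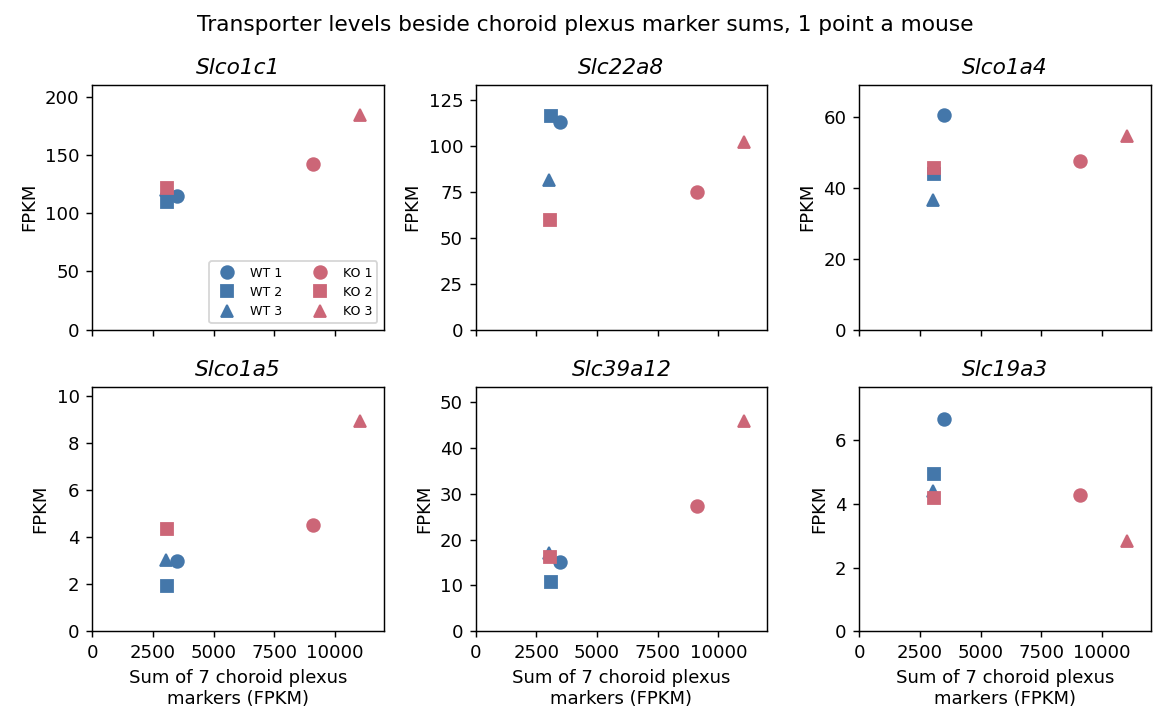
Level of 6 carriers (FPKM, from 0) against the sum of 7 choroid plexus epithelium markers (FPKM) in the same library, 1 point a mouse, WT blue and KO red. KO 1 and KO 3 stand to the right at 9107 and 11038 FPKM; Slco1c1, Slco1a5 and Slc39a12 are highest in KO 3, whereas Slc22a8, Slco1a4 and Slc19a3 are not.

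Other genes of the thyroid hormone system were considered next. Slc7a5, the large neutral amino acid transporter that also accepts thyroid hormone, was at 126, 155 and 137 FPKM in WT and at 130, 105 and 95.5 FPKM in KO (log2 fold change -0.34, adjusted p = 0.848). Its relative Slc7a8 had a log2 fold change of 0.06 and overlapping groups.

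Of the 18 genes listed for thyroid hormone transport, deiodination, binding and receptors, 16 were tested, 6 with a higher and 10 with a lower mean log2 level in KO, and the median log2 fold change was -0.05. At an unadjusted p under 0.05, 0 were higher and 1 was lower. That gene was Hr, a corepressor of nuclear receptors and a known thyroid hormone target, at 4.88, 6.85 and 5.94 FPKM in WT and 2.65, 4.63 and 2.69 FPKM in KO. Its groups did not overlap, and its log2 fold change was -0.69 (SE 0.28, unadjusted limma p = 0.0319, adjusted p = 0.841, exact permutation p = 0.1). The unadjusted p was 0.05 or more in 7 of 17 alternatives, among them GC correction and the removal of WT 2, WT 3, KO 1 or KO 3, with log2 fold changes of -0.90 to -0.59 when 1 library was left out, -0.48 with GC correction and -0.28 without KO 1 and KO 3.

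Many genes of the organic anion carrier families were below the mean of 1 FPKM needed for a test. Of 12 other Slco genes 4 were tested, and Slco6c1 and Slco6d1 were at 0 in all libraries. Slco2a1, the prostaglandin carrier of endothelium, was at 16.8, 19.9 and 14.5 FPKM in WT and 8.26, 9.33 and 11.1 FPKM in KO. Every KO mouse was below every WT mouse, with a log2 fold change of -0.78 (SE 0.22, unadjusted limma p = 0.00486, adjusted p = 0.841, exact permutation p = 0.1), and its unadjusted p was under 0.05 in all 18 alternatives. Slco1a5, an organic anion carrier that choroid plexus epithelium also expresses, was at 2.99, 1.93 and 3.04 FPKM in WT and 4.53, 4.34 and 8.95 FPKM in KO. It was above the WT range also in KO 2, and its log2 fold change was 0.88 (SE 0.32, unadjusted limma p = 0.02, adjusted p = 0.841, exact permutation p = 0.1). The unadjusted p was 0.05 or more in 4 of 17 alternatives, and the log2 fold change was 0.73 with GC correction, 0.73 without WT 2, 0.59 without KO 3 and 0.56 without KO 1 and KO 3. Among the 4 tested, 2 were higher and 2 lower, with a median of -0.28.

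Of the 24 other Slc22 genes 10 were tested, 6 with a higher and 4 with a lower mean log2 level in KO and a median of 0.05. The 1 gene with an unadjusted p under 0.05 was Slc22a23, a member without an established substrate, at 16.5, 18.9 and 13.6 FPKM in WT and 7.9, 12.7 and 8.19 FPKM in KO. The KO mice were all below the WT mice (log2 fold change -0.73, SE 0.24, unadjusted limma p = 0.0131, adjusted p = 0.841, exact permutation p = 0.1). The unadjusted p was 0.05 or more in 4 of 18 alternatives, and the log2 fold change was -0.56 with endothelial scaling, -0.62 without WT 2, -0.62 without KO 1 and -0.33 without KO 1 and KO 3.

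Among 10 tested of the 11 genes of thiamine uptake and use, 5 were higher and 5 lower on average, the median was -0.01 and 0 had an unadjusted limma p under 0.05. Slc19a2, the other dedicated thiamine carrier, was at 4.77, 3.96 and 3.61 FPKM in WT and 6.7, 4.2 and 5.01 FPKM in KO. Its log2 fold change of 0.29 (adjusted p = 0.899) had the opposite sign to that of Slc19a3, and its groups overlapped. The Slc19a2 value was 0.14 to 0.42 with 1 library left out and 0.03 without KO 1 and KO 3. Dld, a subunit shared by the pyruvate and oxoglutarate dehydrogenases, had a log2 fold change of 0.18 with overlapping groups.

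Around Slc40a1, 22 of 27 iron genes were tested, 10 with a higher and 12 with a lower mean log2 level in KO and a median of -0.04. Steap3, a ferrireductase of endosomes, was the 1 gene with an unadjusted p under 0.05, at 36.6, 33.5 and 29.7 FPKM in WT and 26.4, 17 and 26.8 FPKM in KO (log2 fold change -0.52, unadjusted limma p = 0.0455, adjusted p = 0.841, exact permutation p = 0.1). Its unadjusted p was 0.05 or more in 10 of 18 alternatives, among them median scaling, GC correction and length correction, and its log2 fold change was -0.31 without KO 2 and -0.93 without KO 1 and KO 3. Tfrc, the transferrin receptor, was at 50.9, 41.3 and 42 FPKM in WT and 38.3, 100 and 25.4 FPKM in KO. KO 2 was far above and KO 1 and KO 3 below all WT mice, so that the log2 fold change was 0.05 with an interval from -0.86 to 0.96, and it was -0.50 without KO 2 and 1.16 without KO 1 and KO 3. KO 2 was also the highest mouse for Slc39a10, but Slc40a1 did not stand out there. Heph, the ferroxidase that works with ferroportin, had a log2 fold change of 0.09 and overlapping groups, and Fth1 and Ftl1, the ferritin genes with the hairpin shown above, each had one of -0.13.

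In the zinc importer family 11 of 12 other Slc39 genes were tested, 7 with a higher and 4 with a lower mean log2 level in KO and a median of 0.14. Slc39a12, a zinc importer of the brain, was the 1 gene with an unadjusted p under 0.05, at 15.2, 10.8 and 17 FPKM in WT and 27.3, 16.2 and 45.9 FPKM in KO. KO 2 lay inside the WT range, the log2 fold change was 0.91 (SE 0.34, unadjusted limma p = 0.0232, adjusted p = 0.841, exact permutation p = 0.2), and with KO 1 and KO 3 left out it was 0.19. The unadjusted p was 0.05 or more there and in 3 other alternatives of 18, which were GC correction (0.78) and the removal of WT 2 (0.73) or KO 3 (0.55). Slc39a14, the closest relative of Slc39a8, had a log2 fold change of 0.24 with overlapping groups, and of 0.10 to 0.35 with 1 library left out. The part of choroid plexus RNA in the Slco1a5 and Slc39a12 levels was not tested.

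Of 14 genes of zinc export and buffering 12 were tested, 8 with a higher and 4 with a lower mean log2 level in KO, a median of 0.19 and 0 with an unadjusted limma p under 0.05. Slc30a5, a zinc exporter into the secretory pathway, was at 14.5, 9.83 and 13.6 FPKM in WT and 21.5, 14.9 and 17.5 FPKM in KO, with every KO mouse above every WT mouse (log2 fold change 0.47, limma p = 0.066, adjusted p = 0.841, exact permutation p = 0.1). The difference was 0.32 on the log2 scale without WT 2, 0.32 with GC correction and 0.24 without KO 1 and KO 3. Slc30a3, which loads zinc into synaptic vesicles, had a log2 fold change of -0.56, and the metallothionein gene Mt1 one of -0.38, both with overlapping groups. Both moved with single libraries, as Slc30a3 was at -1.10 without KO 2 and -0.21 without KO 1, and Mt1 at -0.17 without KO 2 and -0.71 without KO 1. Without KO 1 and KO 3 they were at 0.52 and -0.81. Slc30a1, the zinc exporter of the plasma membrane, had one of 0.13.

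**Figure D5:**
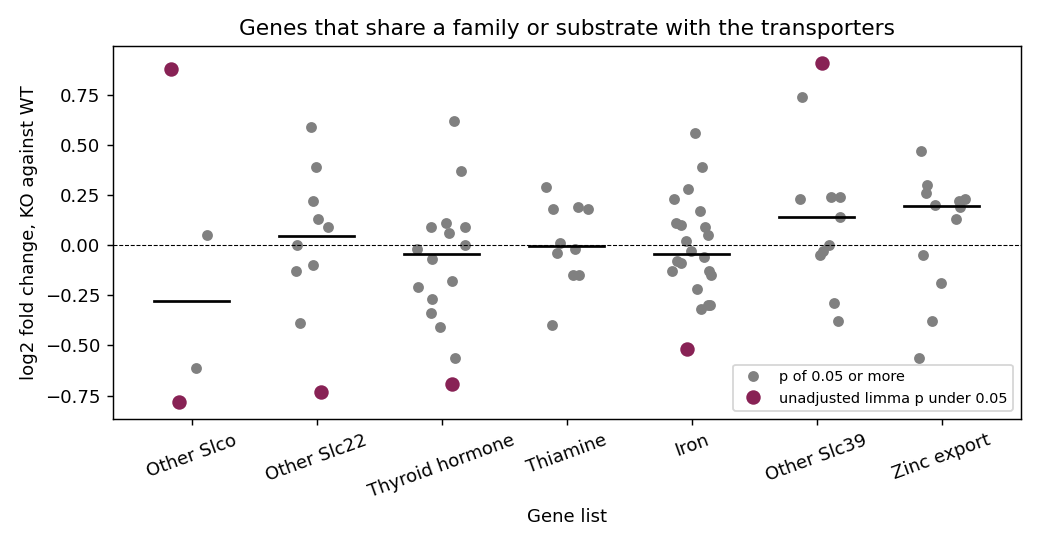
Log2 fold change of KO against WT for each tested gene of the 7 lists named on the x axis, 1 point a gene, with black bars for list medians (from -0.28 for other Slco genes to 0.19 for zinc export). Purple points have an unadjusted limma p under 0.05; they are Slco1a5 and Slco2a1, Slc22a23, Hr, Steap3 and Slc39a12, and no point passed adjustment.

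The genes whose levels followed each member most closely over the 6 libraries were sought among the 9959 genes whose mean reached 5 FPKM. Over so few libraries high correlations are frequent, and these values are descriptions across libraries that differ in genotype, depth and cell makeup. Slco1c1 was followed by Phactr2 (r = 0.995) and Atp2b3, a plasma membrane calcium pump (r = 0.993), and 69 genes had an r of 0.95 or more with it. Slc22a8 was followed by the integrin gene Itgb4 (r = 0.988), with 51 genes at 0.95 or more. For Slc19a3 there were 7 genes that reached 0.95, led by Zhx2 and Srsf4 (both r = 0.965), and Slco2b1 had the fewest of the members, 6. The leading genes were Atraid (r = 0.997) and Ccny (r = 0.982) for Slco1a4, Klhl4 (r = 0.986) and Zbtb24 (r = 0.982) for Slco2b1, and Gtf3c3 (r = 0.978) and Lrrc45 (r = 0.977) for Slc40a1. They were Twistnb (r = 0.982) and Nsmce2 (r = 0.980) for Slc39a8, and Gnptab (r = 0.993) and Wdr37 (r = 0.992) for Slc39a10. Among the members themselves, Slco1a4 and Slco2b1 varied most alike (r = 0.80), and Slco1c1 and Slc19a3 most unlike (r = -0.82).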

How the data were processed

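RNA of cerebral microvessels from 3 WT and 3 TEKCRIF1 KO mice was sequenced as paired ends. Per the labels, the authors aligned reads to mm10 with TopHat and deposited FPKM values for 23183 genes in each library; the counting tool is not given in the sources used here. The authors name DESeq2 for differential expression without stating its input, and DESeq2 was not run here. From the deposited FPKM, log2(FPKM + 1) was tested with limma 3.58.1 (R 4.3.3, trended variance) over the 14247 genes whose mean reached 1 FPKM, with Benjamini-Hochberg adjustment over all of them; fold changes on this scale understate changes of low genes. The fit was tested on simulated data. Exact two-sided permutation tests used scipy 1.17.1. Depth was estimated from the spacing of low values in 4518 single-transcript genes and covers counting error only. The members and lists were chosen with earlier results of these data known. Named were all members, from each list every gene with an unadjusted p under 0.05 or else the 3 with the smallest p, the closest partners, Gadd45gip1 and the 2 genes most like each member, except that some results under this rule are not reported here; Slc22a6, Cdh5, Cldn5, Fth1 and Ftl1 were added with their values seen. The sources do not say that mice of a group were unrelated, so p-values measure the spread between these samples. Coordinates are from GENCODE M21. Alternatives covered filters, pseudocount, scaling, GC content, transcript length, a replicate block and each library left out.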

Additional observations from a re-analysis of the deposited data

How the results depend on the processing

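No member had an adjusted p under 0.05 in any of the 18 alternatives run, of which the one without KO 1 and KO 3 was chosen after seeing the data. The number of members with an unadjusted limma p under 0.05, 0 as reported, was 1 with endothelial scaling (Slco1c1) and 1 with KO 1 and KO 3 left out (Slc22a8), and ran from 0 to 1 with 1 library left out (Slco1c1 without KO 2, Slc22a8 without KO 3). The number of members whose groups did not overlap, 2 as reported, was 1 with a mean of at least 5 FPKM, where Slc19a3 was not tested, 1 with median scaling, quantile normalization, endothelial scaling or GC correction, 4 with KO 1 and KO 3 left out, and from 2 to 4 with 1 library left out, 4 being without WT 3. These counts go with the share of all genes tested whose groups did not overlap, which was 11.1% as reported, 16.9% to 30.7% with 1 library left out and 61.4% with KO 1 and KO 3 left out, so they cannot be set against the 2 as reported. Endothelial scaling moved the median of all genes to 0.17. With a replicate block, the log2 fold change of Slco1c1 was 0.35 (limma p = 0.171) and no count of members changed; the mice share only a number, and none of the 3 correlations of same-numbered mice exceeded 0.1. With KO 1 and KO 3 left out the sign turned for Slco1a4 (-0.02), Slc40a1 (0.17), Slc7a8 (-0.35), Heph (-0.18), Slc30a1 (-0.04), Dld (-0.07), Slc30a3 (0.52) and the ratio of Slc19a3 to endothelial markers (0.07). With GC correction it turned for Slco1a4 (-0.09), Slc39a10 (-0.06) and Tfrc (-0.14). Slc40a1, at -0.01 as reported, was at 0.01 with trimmed-mean scaling and with length correction, 0.0023 with quantile normalization and 0.16 with endothelial scaling, where Slc39a8 was at 0.13. With 1 library left out the ranges that crossed zero were -0.07 to 0.28 for Slco1a4, -0.15 to 0.14 for Slco2b1 (-0.01 without KO 2), -0.12 to 0.12 for Slc40a1 (0.01 without WT 1, 0.09 without WT 2), -0.14 to 0.07 for Slc39a8 (0.07 without WT 2), -0.10 to 0.13 for Slc39a10, -0.05 to 0.26 for Slc7a8 (-0.04 without WT 1 or KO 3), -0.50 to 0.47 for Tfrc and -0.10 to 0.28 for Heph (-0.02 without WT 2). For the ratios they were -0.01 to 0.32 and -0.02 to 0.37 for Slc40a1 and Slc39a10 to endothelial markers and -0.23 to 0.08 for Slc39a8 to Slc39a10 (0.05 without WT 2). The cause was not tested for these. Slco1c1, Slc22a8 and Slc19a3 kept their sign in every alternative in which they were tested. Depth limits Slc19a3 most, as the member with the fewest fragments.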
